A study of Mus musculus with 6 samples.

Results

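The H/ACA small nucleolar RNAs (genes named Snora) and the small RNAs of the Cajal body (genes named Scarna) were followed in RNA of small extracellular vesicles (sEV), membrane-bound particles that cells release. Members were all genes whose symbol in GENCODE M21 starts with Snora or Scarna, matched by Ensembl identifier. They were 51 genes of the 53379 listed for each library, 42 Snora and 9 Scarna. Predicted small nucleolar RNAs with Gm names, 1385 genes, were not members and served for comparison, as did the 98 Snord genes (C/D small nucleolar RNAs).

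The vesicles came from primary cortical neurons of wild-type mouse embryos. NorEV, from neurons whose treatment is labelled control and that the series calls normoxic, had 3 libraries. HypEV, from neurons labelled OGD/R and called hypoxic, also had 3. The genotype label is WT in both groups, and neither a transgene nor a further agent is named. The labels do not spell out OGD/R, nor say how vesicles were isolated, whether animals were pooled, or whether replicates were separate cultures. Any p-value therefore reflects how far these libraries vary, and that variation may be technical. In RNA of a whole vesicle preparation, fewer vesicles of a kind and less RNA per vesicle cannot be told apart.

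H/ACA RNAs are nuclear guide RNAs. Each folds into hairpins, pairs with a target RNA and brings to it the pseudouridine synthase dyskerin (Dkc1), which works with Nhp2, Nop10 and Gar1 to turn chosen uridines into pseudouridines. Most Snora RNAs guide this change in ribosomal RNA in the nucleolus, whereas Scarna RNAs act in the Cajal body on the small nuclear RNAs of the spliceosome. In mammals most of these guides are cut out of introns of host genes, many of which encode ribosomal proteins or are non-coding hosts named Snhg. Neurons have prominent Cajal bodies.

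The 3 Snora genes below are shown because they carry the values on which the comparison turns: the most abundant member and the 2 Snora genes with the smallest p. Sequences are those of the GENCODE M21 transcripts (GRCm38), written as DNA from 5′ to 3′. Capitals mark 2 features of the family that were searched on the transcript strand: the match to ANANNA (box H) nearest to the middle and, where present, an ACA placed 3 bases before the 3′ end. The positions are chr2:26639190-26639321 on the minus strand for Snora17, chr7:110046364-110046547 on the plus strand for Snora23 and chr4:132352322-132352526 on the minus strand for Snora73b.
Snora17: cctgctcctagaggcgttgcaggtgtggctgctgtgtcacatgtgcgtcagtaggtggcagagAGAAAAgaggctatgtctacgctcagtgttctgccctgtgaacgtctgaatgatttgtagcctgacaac
Snora23: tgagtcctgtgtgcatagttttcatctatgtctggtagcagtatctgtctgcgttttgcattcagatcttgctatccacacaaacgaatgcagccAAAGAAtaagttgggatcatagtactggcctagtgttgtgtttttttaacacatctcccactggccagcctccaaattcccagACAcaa
Snora73b: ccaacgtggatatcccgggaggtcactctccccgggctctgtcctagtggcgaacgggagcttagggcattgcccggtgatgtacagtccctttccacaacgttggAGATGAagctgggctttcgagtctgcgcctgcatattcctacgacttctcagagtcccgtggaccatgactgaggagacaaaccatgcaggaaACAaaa

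The annotated Snora17 has no ACA exactly 3 bases before its end, and the other two have it. It was present in 35 of 42 Snora genes (83.3%), 2 of 9 Scarna genes (Scarna8 and Scarna13) and 0 of 98 Snord genes. Among all 11287 genes of 70 to 414 nucleotides, the length range of the members, 4.24% had it, and among the predicted Gm genes 18.8%. ANANNA was in all 42 Snora genes but also in 89.8% of the genes of that length range, so it does not set the family apart. Detection did not go with the ACA: it was present in 14 of the 16 Snora genes above 0 and in 21 of the 26 at 0.

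The Scarna genes are of several kinds. Scarna2, Scarna9 and Scarna17 are known as C/D guides, which direct methylation of the ribose, Scarna6 and Scarna10 as guides with both C/D and H/ACA parts, and Scarna3a, Scarna3b, Scarna8 and Scarna13 as H/ACA guides. Scarna6 is shown because it was at 0 in all NorEV libraries and above 0 in all HypEV libraries. It lies at chr1:87784556-87784820 on the plus strand. Capitals mark TGATGA (box C) near the start and CTGA (box D) near the end.
Scarna6: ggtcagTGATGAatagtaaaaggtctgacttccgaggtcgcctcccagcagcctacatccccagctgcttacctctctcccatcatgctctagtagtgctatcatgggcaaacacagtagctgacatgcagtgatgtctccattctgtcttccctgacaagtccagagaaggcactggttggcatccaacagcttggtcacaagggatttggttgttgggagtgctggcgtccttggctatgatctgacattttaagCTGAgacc

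TGATGA within the first 20 bases together with CTGA within the last 20 was found, on the transcript strand, in 4 of 9 Scarna genes (Scarna6, Scarna9, Scarna10 and Scarna17). It was found in 68 of 98 Snord genes (69.4%), 0 of 42 Snora genes and 16.8% of the predicted Gm genes.

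Scarna13, Scarna3a and Scarna3b are shown because each shares bases on its own strand with an annotated microRNA gene. Capitals mark the shared bases, 65 in each. The microRNA genes are Mir3069, Mir1843b and Mir1843a in this order. Positions are chr12:105031075-105031349 on the minus strand for Scarna13, chr1:159340283-159340422 on the plus strand for Scarna3a and chr12:80391613-80391751 on the minus strand for Scarna3b.
Scarna13: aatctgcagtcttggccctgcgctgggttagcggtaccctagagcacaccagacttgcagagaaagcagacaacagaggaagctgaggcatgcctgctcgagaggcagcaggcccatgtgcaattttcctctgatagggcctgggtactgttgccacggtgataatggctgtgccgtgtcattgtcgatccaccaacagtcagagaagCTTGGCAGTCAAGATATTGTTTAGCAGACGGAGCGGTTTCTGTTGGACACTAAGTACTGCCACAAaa
Scarna3a: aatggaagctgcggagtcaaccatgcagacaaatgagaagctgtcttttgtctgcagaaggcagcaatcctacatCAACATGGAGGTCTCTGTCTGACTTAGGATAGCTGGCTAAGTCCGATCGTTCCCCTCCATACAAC
Scarna3b: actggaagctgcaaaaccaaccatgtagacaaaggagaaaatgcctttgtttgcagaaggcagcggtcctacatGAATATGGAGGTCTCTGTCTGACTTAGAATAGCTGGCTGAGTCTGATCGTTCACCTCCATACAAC

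Scarna3a and Scarna3b were identical at 120 of 140 aligned positions (85.7%). Both were at 0 in all libraries, as were the 3 microRNA genes, whereas Scarna13 was above 0 in 5 of 6 libraries.

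Values were deposited as FPKM, fragments per kilobase of gene, scaled by the library's fragment total. For every member in every library, the value was a whole multiple of the worth of 1 read, which gave the reads behind it. Libraries held 1092724 to 1494499 fragments counted on genes in NorEV and 1320916 to 2141611 in HypEV. Depth was thus low: 1 read on a gene of 130 nucleotides was worth 3.59 to 7.04 FPKM, and a count of 0 allows up to 3 reads. Reads carry no molecular identifiers, so intervals and limits cover counting error only. The short gene Gm23935 and its near-identical copies (6 genes) took 0.303 to 4.34% of the fragments in NorEV, but 49.6, 1.97 and 24.5% in HypEV 1, 2 and 3, which lowers the FPKM of all other genes there. The median FPKM of 12 neuronal markers was 7.57 to 10.9 in NorEV and 5.89 to 10.2 in HypEV. Over all 6 libraries the medians were 5.26 to 14.6 for astrocyte, 5.72 to 9.25 for microglial, 1.49 to 6.64 for oligodendrocyte lineage, 2.35 to 9.78 for interneuron, 3.81 to 11.1 for endothelial, mural and fibroblast, 1.95 to 11.9 for erythroid and 5.03 to 14.0 for progenitor markers, and no list had a marker at 0 throughout. By these medians, neuronal markers were above those of the oligodendrocyte lineage in every library. They were above those of astrocytes only in HypEV 1 and HypEV 3, and above those of progenitors only in HypEV 1 and HypEV 2. Erythroid markers had the higher median in NorEV 2, NorEV 3 and HypEV 2, as had endothelial, mural and fibroblast markers. Microglial markers exceeded the neuronal list in NorEV 1 alone, and interneuron markers in HypEV 2 alone. Markers of cortical excitatory neurons, a separate list, had a lower median than astrocyte markers in every library. Their median was also below that of microglial markers in every library except NorEV 2.

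Of the 51 members, 22 were above 0 in at least 1 library, 16 Snora and 6 Scarna, and 29 were at 0 in all 6. At least 2 reads in a library were reached by 18 members. In NorEV 9, 9 and 9 members were above 0 in libraries 1, 2 and 3, and in HypEV 12, 14 and 15. Each HypEV library thus held more detected members than each NorEV library. These counts were not tested or adjusted for depth, and they include members with near-identical copies. The comparison classes did not follow this order. Of 1248 predicted Gm genes with no base under a same-strand exon of another gene, 352, 561 and 631 were above 0 in NorEV. In HypEV, 273, 506 and 347 were. Of 57 such Snord genes, 10, 15 and 19 were above 0 in NorEV and 8, 12 and 8 in HypEV. Among members, only Snora17 and Snora62 were above 0 in all 6 libraries, while 5 were above 0 in 1 library, 2 in 2, 7 in 3, 4 in 4 and 2 in 5.

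**Figure D1:**
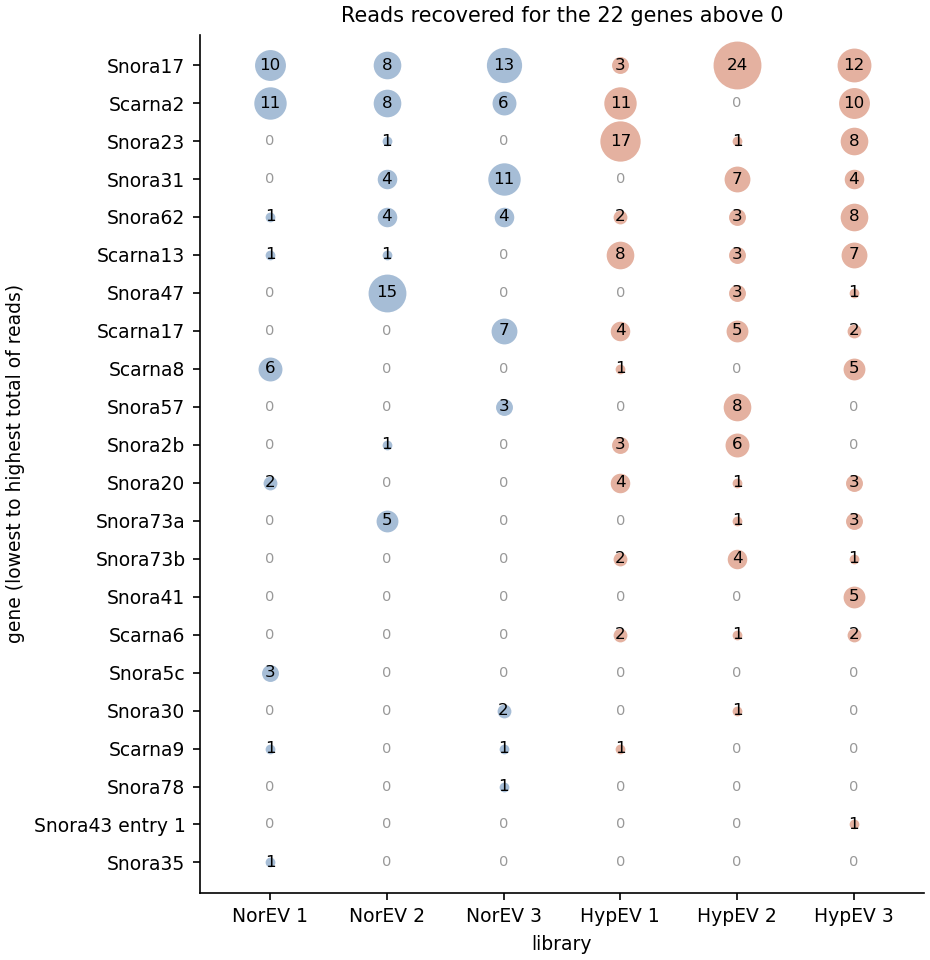
Reads recovered for the 22 Snora and Scarna genes above 0 (rows, ordered by total) in each of the 6 libraries (columns). Circle area follows the number of reads, which is printed. Snora17 has reads in all 6 libraries, Snora23 has 17 and 8 reads in HypEV 1 and 3, and most other cells hold 0 to 8 reads.

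Whether a member was detected went with where it lies in the annotation. Of the 51 members, 44 lie inside another gene on the same strand. All bases of 19 members fall under same-strand exons of another gene, and 0 of these 19 were above 0 in any library. Of 13 members covered in part, 5 were above 0, and of 19 with no base covered, 17 were. Exons annotated for their hosts cover 18 of these 19, and the shorter Snora43 entry lies within the longer one. Snora16a (annotated as 2 entries), Snora44 and Snora61 lie in Snhg12, Snora24 in Snhg8, Snora9 in Snhg15, Snora26 in Dancr, Snora75 in nucleolin (Ncl), Snora81 in Eif4a2 and Snora28 in Eif5, both genes of translation factors, and Snora3, Snora33, Snora52, Snora64, Snora65, Snora68, Snora70 and Snora7a in genes of ribosomal proteins. Of the 11 members in ribosomal protein genes, only Snora62, in an intron of Rpsa, was above 0.

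The members covered in part and above 0 were Scarna13, with 210 of 275 bases free, Snora2b with 45 free bases, Snora73a with 46, Snora5c with 9 and the longer Snora43 entry with 12. Those at 0 in all libraries were Scarna3a with 75 free bases, Scarna10 with 42, Scarna3b with 14, Snora36b with 68, Snora19 with 64, Snora34 with 46, Snora15 with 29 and Snora74a with 100. The free length thus did not separate them, since Snora5c and Snora43 were detected with fewer free bases than any of the 8 at 0. Snora21, in an intron of Rpl23, and Snora69, in an intron of Rpl39, were the members at 0 with no base covered.

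The same order held in the comparison classes. Of Snord genes, 0 of 37 fully covered, 1 of 4 partly covered and 31 of 57 uncovered genes (54.4%) were above 0. Of predicted Gm genes, the counts were 0 of 94, 2 of 43 and 901 of 1248 (72.2%). The table names mention the counting program HTSeq, and whether a read on exons of several genes was counted is not given in the sources used here. A 0 for a fully covered member therefore cannot be read as absence of its RNA from the vesicles. For partly covered members, the values may lack reads on the shared bases. In all values, mature guide RNA and unspliced host RNA cannot be told apart.

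**Figure D2:**
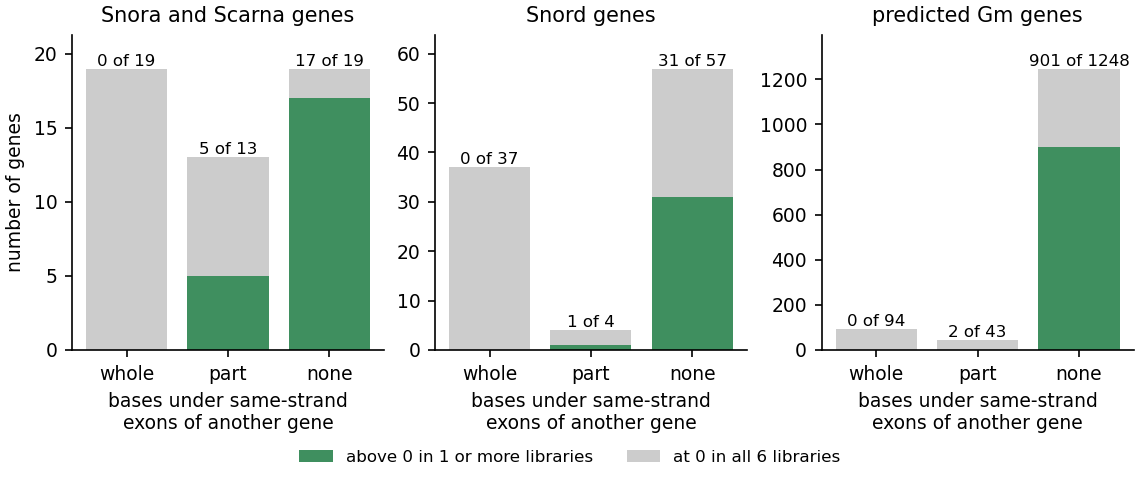
Number of genes above 0 in 1 or more libraries (green) and at 0 in all 6 (grey), by whether all, some or none of a gene's bases lie under same-strand exons of another gene. Panels show the 51 Snora and Scarna genes, 98 Snord genes and 1385 predicted Gm genes, each with its own vertical axis. Fully covered genes are at 0 in all 3 panels.

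The members together held 36, 47 and 48 reads in NorEV 1, 2 and 3 and 58, 68 and 72 reads in HypEV 1, 2 and 3. As a share of all fragments on genes this was 0.00329, 0.00333 and 0.00321% in NorEV (0.00328% ± 0.000059, SD, n = 3) and 0.00271, 0.00470 and 0.00545% in HypEV (0.00429% ± 0.00142, SD, n = 3). HypEV 1 lay below all NorEV libraries and HypEV 2 and 3 above them, so the groups overlapped. As a share of the fragments outside the Gm23935 family, the values were 0.00344, 0.00334 and 0.00322% in NorEV and 0.00537, 0.00480 and 0.00722% in HypEV. On this scale every HypEV library was above every NorEV library, but not when members with near-identical copies were left out, as given below. Snord genes held 47, 76 and 67 reads in NorEV and 74, 75 and 44 in HypEV.

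Few genes made up the sum. Snora17 held 70 of the 329 reads (21.3%), the 5 members with most reads 58.1% and the 10 with most 82.4%. By mean FPKM over the 6 libraries, which is per length, the order was Snora17 (63.9), Scarna17 (24.3), Snora31 (23.2), Snora62 (17.3), Snora47 (16.2), Snora23 (13.9), Scarna2 (13.1) and Scarna8 (12.4). The ranges over libraries of neighbours in this order overlapped.

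For the 19 uncovered members, reads per gene were 1.68, 2.11 and 2.53 in NorEV and 2.47, 3.05 and 3.21 in HypEV. For the 1248 uncovered predicted genes they were 1.45, 2.30 and 2.48 in NorEV and 1.31, 2.34 and 1.35 in HypEV. The ratio of the first to the second, which does not depend on the fragments taken by the Gm23935 family, was 1.16, 0.915 and 1.02 in NorEV and 1.88, 1.31 and 2.37 in HypEV. All HypEV libraries were above all NorEV libraries. Without Snora17, Snora23 and Scarna2, which leaves 16 members, the ratio was 0.473, 0.625 and 0.731 in NorEV and 0.761, 0.883 and 1.43 in HypEV. This measure was chosen after the values were seen and has no test. Both ratios include members with near-identical copies. Without members of that kind the summed share, given below, overlapped between groups, with HypEV 2 the lowest library.

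**Figure D3:**
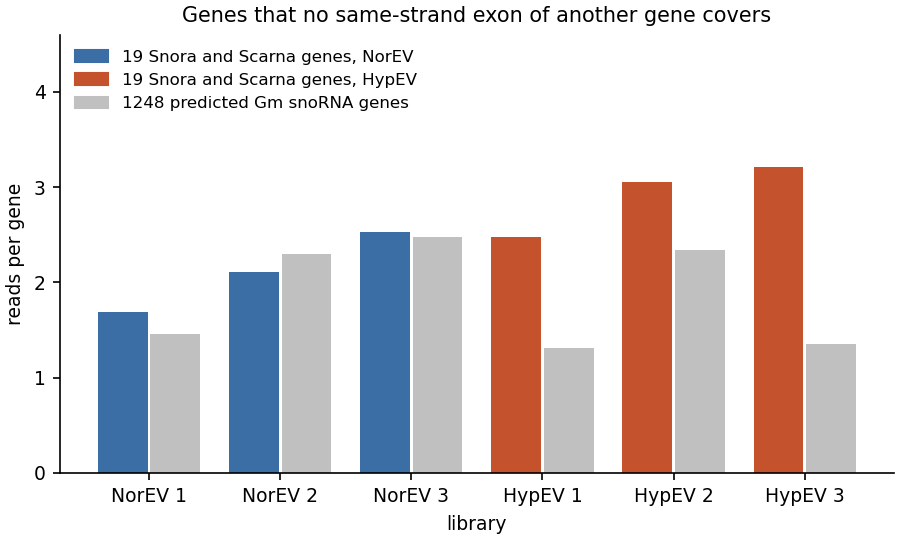
Reads per gene (vertical axis, from 0) in each library, over the 19 Snora and Scarna genes (blue, NorEV; orange, HypEV) and the 1248 predicted Gm snoRNA genes (grey) that have no base under a same-strand exon of another gene. In NorEV both bars are alike in height, with ratios of 0.915 to 1.16, and in HypEV the coloured bar is the taller one, with ratios of 1.31 to 2.37. Members with near-identical copies are included.

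HypEV was compared with NorEV on log2(FPKM + 1) with limma, for the 44125 genes whose mean reached 1 FPKM. Fold changes on this scale understate changes of low genes. Of the 51 members 20 were tested, 14 Snora and 6 Scarna, on 1 to 70 reads each. With limma, 0 of 20 passed an adjusted p under 0.05 (smallest 0.572), where 0.0159% of all genes tested passed. At an unadjusted p under 0.05 in limma, 4 of 20 were higher in HypEV, namely Snora73b, Snora23, Scarna13 and Scarna6, where 0.635% of all genes were, and 0 were lower, where 6.13% were. limma-voom on the recovered reads, a second tool, also called 0 members (0.546% of all genes), and 0 when the Gm23935 family was left out of the totals (0.142% of all genes, smallest adjusted p of a member 0.425). At an unadjusted p under 0.05, limma-voom left 1 of the 4, Snora23 (0.368% of all genes were higher), and without the Gm23935 family in the totals all 4 (2.23%). The groups did not overlap for 3 members, all higher in HypEV (1.1% of all genes), and for 0 in the lower direction (10.8% of all genes). Of these 3, Snora73b and Scarna6 were at 0 in NorEV and entered the test only through HypEV. Their direction was fixed by the filter. Scarna13 and Snora23 averaged 1.97 and 1.28 FPKM in NorEV, which with 0 in HypEV would not reach 1 FPKM over the 6 libraries. All 4 members named above thus needed their HypEV values to be tested, so their count is partly set by the filter.

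The log2 fold change was above 0 in 13 of the 20 tested members (65%) and in 25.1% of all genes tested. Its median was 0.49 for the members and −0.44 for all genes. Members at 0 in NorEV reach the mean of 1 FPKM only through HypEV and so had to be higher there. This holds for Scarna6, Snora41 and Snora73b, and Snora5c and Snora35 are the reverse case. Scarna13, Snora23 and Snora2b were above 0 in NorEV but reached that mean only with their HypEV values, and Snora30 only with its NorEV values. The filter thus bears on the 65% as well.

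**Figure D4:**
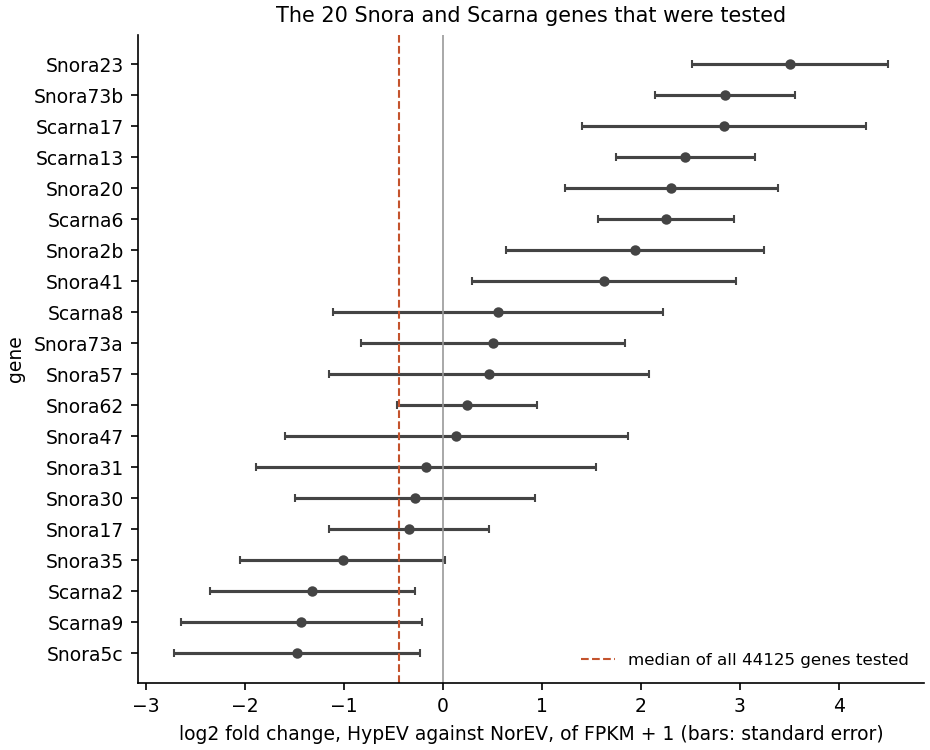
log2 fold change of FPKM + 1, HypEV against NorEV, with its standard error, for the 20 Snora and Scarna genes tested, ordered by size. The dashed line is the median of all 44125 genes tested, −0.44. Points of 13 genes lie above 0, and none passed an adjusted p under 0.05 in limma.

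Snora73a and Snora73b differ in role from the other Snora genes: they are needed for cleavage of the precursor of the small ribosomal subunit's RNA and are not known mainly as guides. Snora73b (ENSMUSG00000065353) was at 0 FPKM in all 3 NorEV libraries and at 4.56, 13.5 and 3.69 FPKM in HypEV 1, 2 and 3, on 2, 4 and 1 reads. All HypEV libraries were above all NorEV libraries, but each value rests on few reads, and 0 in NorEV allows 9.79 to 13.4 FPKM. The fitted log2 fold change was 2.85 ± 0.71 (SE), with a limma adjusted p of 0.572, and is no bound because NorEV was at 0. Snora73a was at 0, 17.3 and 0 FPKM in NorEV and at 0, 3.37 and 11.1 in HypEV, so its groups overlapped. The pair is identical at 198 of 205 positions (96.6%), so reads of one may have been given to the other. All 205 bases of Snora73b and 175 of Snora73a also lie under exons on the opposite strand. Whether reads were counted by strand is not given in the sources used here, and a part of opposite-strand RNA in these values was not tested. Their host genes Rcc1 and Snhg3 had log2 fold changes of 0.05 ± 0.49 (limma adjusted p = 0.983) and −1.10 ± 0.96 (0.798).

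Snora23 (ENSMUSG00000064451), an H/ACA guide in an intron of the importin gene Ipo7, had the largest fold change of the 20. It was at 0, 3.85 and 0 FPKM in NorEV and at 43.1, 3.76 and 32.9 in HypEV, on 0, 1 and 0 against 17, 1 and 8 reads. HypEV 1 and 3 were high, and HypEV 2 lay just below NorEV 2, so the groups overlapped. The log2 fold change was 3.51 ± 0.99 (SE, limma adjusted p = 0.604). HypEV 1 and 3 are also the libraries in which the Gm23935 family took 49.6 and 24.5% of the fragments, and its part in the result was not tested. Ipo7 was at 24.8, 70.1 and 45.2 FPKM in NorEV and at 10.3, 44.0 and 18.6 in HypEV, a log2 fold change of −1.03 ± 0.60 (adjusted p = 0.7501), so host and guide had opposite signs.

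Snora17 (ENSMUSG00000077192) was the most abundant member. It lies in no annotated gene on its strand. Its values were 69.3, 42.9 and 65.9 FPKM in NorEV (59.4 ± 14.4, SD, n = 3) and 10.6, 126 and 68.8 in HypEV (68.4 ± 57.6, SD, n = 3). HypEV 1 was the lowest and HypEV 2 the highest of all 6 libraries, so the groups overlapped. The log2 fold change was −0.34 ± 0.81 (limma adjusted p = 0.922), and without HypEV 1 it was 0.67. Its 4 annotated near-identical copies, entries of Gm25617 and Gm25053, were at 0 in all libraries. Each of these 2 genes is annotated as 2 entries that overlap almost completely. Their values may therefore lack reads on the shared bases, and how reads were shared with Snora17 is uncertain.

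Snora62, in an intron of the ribosomal protein gene Rpsa, was at 6.14, 18.99 and 17.96 FPKM in NorEV and at 6.27, 13.9 and 40.6 in HypEV, with a log2 fold change of 0.25 ± 0.71 (limma adjusted p = 0.936). Snora31, in an intron of Tpt1, was at 0, 21.8 and 56.6 FPKM in NorEV and at 0, 37.2 and 23.3 in HypEV, with a log2 fold change of −0.17 ± 1.71 (limma adjusted p = 0.984). Library 1 of each group was the lowest for both genes, and the groups overlapped.

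Reads of Snora47 and Snora57 came mainly from 1 or 2 libraries. Snora47, in an intron of Zbed3, was at 0, 76.9 and 0 FPKM in NorEV and at 0, 15.0 and 5.49 in HypEV, so that 15 of its 19 reads came from NorEV 2. Snora57 was at 13.6 FPKM in NorEV 3 and at 37.4 in HypEV 2, and at 0 in the other libraries. Its copy Gm26132, alike at 95.9% of aligned positions, held 30 reads in all against 11 for Snora57. Above 0 in 4 of 6 libraries, Snora20, in an intron of Tcp1, was at 14.3, 0 and 0 FPKM in NorEV and at 14.6, 5.40 and 17.7 in HypEV, with a log2 fold change of 2.31 ± 1.07 (limma adjusted p = 0.720).

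Snora2b was at 0, 5.16 and 0 FPKM in NorEV and at 10.2, 30.3 and 0 in HypEV, and it has 4 near-identical copies. Snora41 was listed above 0 in HypEV 3 alone, at 28.7 FPKM on 5 reads. Snora5c was above 0 in NorEV 1 alone, at 20.2 FPKM on 3 reads. Of Snora35, a guide known from brain that lies in an intron of the serotonin receptor gene Htr2c, 1 read was found, in NorEV 1 (7.15 FPKM). Snora30 held 3 reads, and Snora78 and the longer Snora43 entry 1 read each. None of these genes separated the groups.

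Scarna13 (ENSMUSG00000088789), a Cajal body RNA made of tandem H/ACA units that lies in an intron of Snhg10, was at 3.33, 2.57 and 0 FPKM in NorEV (mean 1.97 ± 1.74, SD, n = 3) and at 13.6, 7.55 and 19.3 in HypEV (13.5 ± 5.86, SD, n = 3). These rest on 1, 1 and 0 reads against 8, 3 and 7. Every HypEV library was above every NorEV library. The log2 fold change was 2.45 ± 0.70 (SE), with a limma adjusted p of 0.605. Snhg10 itself, the host, averaged 9.27 FPKM with an SD of 8.23 in NorEV and 7.67 with an SD of 5.49 in HypEV (n = 3 each), a log2 fold change of −0.11 ± 0.92.

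Scarna6 (ENSMUSG00000089281), in an intron of the autophagy gene Atg16l1, was at 0 FPKM in all NorEV libraries and at 3.52, 2.61 and 5.71 in HypEV 1, 2 and 3, on 2, 1 and 2 reads. The groups did not overlap, yet 0 in NorEV allows 7.57 to 10.4 FPKM, which is above all 3 HypEV values. No single NorEV library thus sets a level below the HypEV values, and 5 reads in all do not settle a difference between the groups. The limma adjusted p was 0.634. Atg16l1 averaged 24.9 FPKM with an SD of 3.21 in NorEV and 25.9 with an SD of 10.8 in HypEV (n = 3 each).

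Scarna2 (ENSMUSG00000088185), a long C/D guide outside any annotated gene on its strand, held 46 reads, the second highest number. It was at 24.3, 13.7 and 9.70 FPKM in NorEV and at 12.4, 0 and 18.3 in HypEV, on 11, 8 and 6 against 11, 0 and 10 reads. HypEV 2 stood apart: its 0 allows 5.01 FPKM, below every other library. The log2 fold change was −1.31 ± 1.04 (limma adjusted p = 0.797), and without HypEV 2 it was 0.02.

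Scarna17 was at 0, 0 and 59.3 FPKM in NorEV and at 23.6, 43.8 and 19.2 in HypEV, with a log2 fold change of 2.84 ± 1.43 (limma adjusted p = 0.726). NorEV 3 was the highest library, so the groups overlapped. Gm25443, an annotated copy identical over its aligned length, went the other way, at 24.1, 9.31 and 17.6 FPKM in NorEV and at 0 in all HypEV libraries. The 2 entries held 18 and 5 reads, and how reads were shared between them is uncertain.

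Scarna8, in an intron of Haus6, was at 41.9, 0 and 0 FPKM in NorEV and at 3.56, 0 and 28.9 in HypEV, with a log2 fold change of 0.56 ± 1.67 (limma adjusted p = 0.939). Scarna9 was at 13.1, 0 and 9.56 FPKM in NorEV and at 6.67, 0 and 0 in HypEV, each value above 0 being 1 read. Its log2 fold change was −1.43 ± 1.22 (limma adjusted p = 0.798). Neither gene separated the groups.

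**Figure D5:**
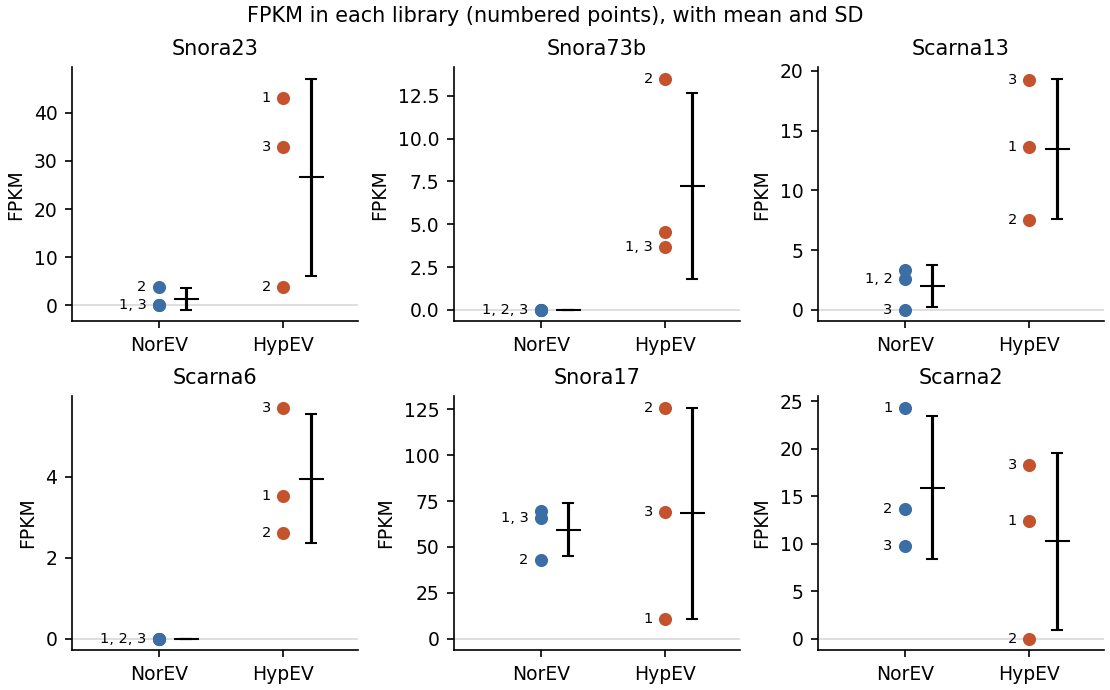
FPKM (vertical axes, each from about 0) of 6 members in the 3 NorEV (blue) and 3 HypEV (orange) libraries, numbered by replicate, with mean and SD (black). Snora73b, Scarna13 and Scarna6 do not overlap between groups, while Snora23, Snora17 and Scarna2 do. Snora17 ranges from 10.6 to 126 FPKM within HypEV.

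Near-identical copies elsewhere in the annotation, over 90% alike across over 80% of the length, were found for 22 of the 51 members, of which 9 were above 0. Without these 22 genes the members held 0.00210, 0.00233 and 0.00154% of the fragments in NorEV and 0.00215, 0.00131 and 0.00371% in HypEV, and the groups overlapped. Of the fragments outside the Gm23935 family they held 0.00220, 0.00235 and 0.00154% in NorEV and 0.00426, 0.00134 and 0.00491% in HypEV. HypEV 2 was the lowest library, so the groups overlapped on this scale too.

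The 41 host genes that hold members have values of their own, which may include reads on members that their exons cover. Of these hosts, 40 were tested. Their log2 fold change was above 0 in 10 (25.1% of all genes were) and below 0 in 30, with a median of −0.27 against −0.44 for all genes. With limma 0 passed, as with limma-voom, and 1 had an unadjusted p under 0.05, where 6.13% of all genes did in the lower direction and 0.635% in the higher. That 1 was Haus6, which encodes a part of the augmin complex of the mitotic spindle and holds Scarna8: 47.1, 62.4 and 36.7 FPKM in NorEV against 16.2, 31.1 and 27.0 in HypEV. All NorEV libraries were above all HypEV libraries, as in 10.8% of all genes, and the log2 fold change was −0.97 ± 0.42 (limma adjusted p = 0.720).

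Genes for the proteins of the pathway were present at low to moderate levels, and with limma 0 of them passed. Of the 4 core proteins of H/ACA particles, 1 had a log2 fold change above 0 and 3 below, with a median of −0.38 against −0.44 for all genes. Gar1 was at 19.4, 15.0 and 20.5 FPKM in NorEV and at 14.3, 36.5 and 28.6 in HypEV (0.42 ± 0.45, limma adjusted p = 0.802). Dkc1, the synthase, was at 3.92, 4.54 and 7.87 FPKM in NorEV and at 7.66, 5.92 and 0.540 in HypEV (−0.46 ± 0.75, limma adjusted p = 0.875). The groups overlapped for both.

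Of 7 assembly factors, which include Naf1 and Shq1, 1 had a log2 fold change above 0 and 6 below (median −0.46). Of 4 genes for processing of RNA 3′ ends, 1 was above 0 and 3 below (median −0.65). Among these was Toe1, a nuclease of the Cajal body that trims the ends of small RNAs and the only gene of the protein lists with an unadjusted p under 0.05 in limma (6.13% of all genes in the lower direction). Toe1 was at 9.20, 10.2 and 9.92 FPKM in NorEV (9.76 ± 0.501, SD, n = 3) and at 2.23, 6.29 and 2.17 in HypEV (3.57 ± 2.36, SD, n = 3). All NorEV libraries were above all HypEV libraries, which held for 10.8% of all genes, and the log2 fold change was −1.35 ± 0.53 (limma adjusted p = 0.720).

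Of 15 genes of the Cajal body and the SMN complex, which loads proteins onto small nuclear RNAs, 14 were tested, with 2 log2 fold changes above 0 and 12 below (median −0.39). Smn1 was at 50.9, 73.0 and 36.7 FPKM in NorEV and at 21.02, 28.3 and 38.4 in HypEV (−0.84 ± 0.43, limma adjusted p = 0.726). Coil, which encodes the scaffold of the Cajal body, had a log2 fold change of −0.02 ± 0.63, and Wrap53, whose protein brings Scarna RNAs there, one of −0.64 ± 0.73. Of 12 stand-alone pseudouridine synthases, which need no guide, 3 were above 0 and 9 below (median −0.35). Terc, the telomerase RNA with an H/ACA end, was at 4.33, 0 and 3.16 FPKM in NorEV and at 0, 0 and 14.3 in HypEV.

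For comparison, all 4 core proteins of C/D particles had log2 fold changes below 0 (median −0.63). Fbl, the methylase among them, was at 46.3, 46.4 and 42.7 FPKM in NorEV and at 18.6, 36.7 and 18.5 in HypEV (−0.92 ± 0.41, limma adjusted p = 0.720), with no overlap of the groups (10.8% of all genes in this direction). Of 22 genes with names in Rnu, 10 are entries of the U3 small nucleolar RNA (Rnu3), a C/D RNA, and all 10 were at 0 in all libraries. Among 10 others that belong to the spliceosome, on whose RNAs Scarna RNAs act, 2 were at 0 in all libraries and 7 were tested, 3 with log2 fold changes above 0 and 4 below. Rnu73b and Rnu7 complete the list, the first tested and below 0, the second at 0. Rnu11, of the minor spliceosome, was by far the highest, at 2254, 275 and 554 FPKM in NorEV and at 1129, 2204 and 2158 in HypEV. NorEV 1 was the highest of all 6 libraries, so the groups overlapped (1.32 ± 1.13, limma adjusted p = 0.798).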

How the data were processed

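RNA of small extracellular vesicles was measured in 3 NorEV and 3 HypEV libraries. Per the labels' protocols, Trizol was used for the RNA and an Epibiotek kit for long RNA (Epi mini) for the libraries. The authors deposited 1 table of FPKM per library, and the table names mention HTSeq. Aligner, build and annotation are not given in the sources used here. Because FPKM is scaled to a library's total, genes that take many fragments lower all others.

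Of 53379 identifiers, 53274 were found in GENCODE M21 (GRCm38) and 105 were not. Reads were recovered by dividing each value by the worth of 1 read at the gene's length there, and 95.96% of values above 0 came out whole within 0.01 reads. Exon overlaps are those of M21 models, and copies were found with blastn 2.17.0. HypEV was tested against NorEV with limma 3.58.1 (R 4.3.3) on log2(FPKM + 1), for genes whose mean reached 1 FPKM, with a variance trend, no covariates, two-sided, and Benjamini-Hochberg adjustment over all genes tested (adjusted p under 0.05). The procedure was tested on simulated data, in which the changed genes held more reads than most members do. Its power for members with few reads was not measured. Other steps ran in Python 3.11.15, with matplotlib 3.10.9, scipy 1.17.1, numpy 2.4.6 and pandas 2.3.3.

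Members with values were named by a rule: the 10 with the highest mean FPKM, the 5 with the smallest p in each direction, Scarna genes with a mean of at least 1 read per library and any member with a mean of at least 5. Of hosts and lists it takes up to 2 genes with the smallest p. The remaining members above 0, and hosts and list genes beyond these, were chosen after their values were seen. The members and the lists were chosen with earlier results of these data known. Alternatives were other pseudocounts, filters, scalings and tools, a replicate block, and leaving out each library. limma-voom on totals without the Gm23935 family was added after seeing the data.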

Additional observations from a re-analysis of the deposited data

How the results depend on the processing

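The number of members past the threshold was 0 under every alternative run. The number of all genes past it was 7, and 0 with a pseudocount of 0.1, without the filter, without the variance trend and with libraries centred on their medians. It was 231 with limma-voom and 60 with limma-voom when the Gm23935 family was left out of the totals, where 1 gene of the pathway lists passed, Rnu11. Leaving out each library gave 0 to 71 genes, with 71 without HypEV 2 and 0 without NorEV 2, NorEV 3 or HypEV 3, and 0 to 0 members. With the replicate block 0 genes passed. Libraries of the same number correlated by 0.0446, 0.102 and −0.0582 in their deviations from the group means. Those of different number correlated by −0.145 to 0.106, a range that holds the same-number values. Whether the numbers pair the samples thus stays undecided. The median log2 fold change of all genes moved from −0.44 to 0.01 with centring and to −0.12 with scaling outside the Gm23935 family, and the genes at an unadjusted p under 0.05 moved from 280 higher and 2705 lower to 1127 and 1394 with centring. The difference in the summed share of the members was 0.00101 percentage points, and 0.00246 outside the Gm23935 family. It was 0.000398 without members that have copies, 0.000429 without HypEV 3 and 0.0018 without HypEV 1.

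Over 16 named members and 233 alternatives, 210 kept their direction and 23 turned it, with a smallest adjusted p of 0.109 (Snora23). Snora17 turned to 0.11 with centring, 0.091 with scaling outside the Gm23935 family and 0.22 with limma-voom without it. Snora31 turned to 0.28 with centring. Snora47 turned to −0.36 with limma-voom and to −0.0079 without the Gm23935 family. Leaving out 1 library gave ranges of −1.05 to 0.67 for Snora17, −1.89 to 1.48 for Snora31, −0.91 to 2.23 for Snora47, −2.11 to 0.022 for Scarna2, −0.71 to 2.36 for Scarna8, −1.29 to 1.75 for Snora57 and −0.42 to 0.84 for Snora62. Scarna17 (1.86 to 4.81), Snora20 (1.66 to 3.62), Scarna9 (−2.63 to −0.72) and Snora23 (2.91 to 4.52) kept their direction. The cause was not tested. Depth limits all of these: tested members held 1 to 70 reads over 6 libraries.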
